A study of Mus musculus with 36 samples.

Results

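The regions described here are the stretches of accessible chromatin at 7 genes of the red cell programme, Klf1, Epor, Slc4a1, Alas2, Tfrc, Hbb-bs and Hba-a1, in 36 ATAC-seq libraries of mouse blood stem and progenitor cells. In ATAC-seq a transposase cuts open chromatin and leaves sequencing adapters there, so a peak of reads marks an accessible site. Peaks of all libraries that overlapped by 1 bp or more were merged into a catalogue of 105005 regions. A region was kept if the protein-coding transcription start site (TSS) nearest to its centre belonged to one of the 7 genes. It was also kept if any part of it lay within 60 kb of the Hbb-bs or Hba-a1 TSS. This gave 46 regions, of which 18 were kept by the nearest TSS and 28 by the globin windows alone. Klf1 had 1 region, Epor 3, Slc4a1 1, Alas2 4, Tfrc 7, Hbb-bs 11 and Hba-a1 19. Each region is named by its gene and the distance of its centre from that gene's TSS along the gene's strand, with upstream distances negative, and a region near a TSS may act on another gene. The edges of the windows cut through unevenly filled stretches: at Hbb-bs the outermost region upstream lay 42.9 kb away inside the window and the next one outside it 82.4 kb away, and at Hba-a1 the last region downstream lay 59.5 kb away and the next one outside 64.3 kb away.

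The libraries came from bone marrow of C57BL/6 mice aged 10 weeks (young) or 20 months (aged), with no treatment or genetic change named in the labels, and each held 20000 freshly sorted cells. Hematopoietic stem cells (HSCs; Lin- Sca-1+ c-kit+ cells with CD150 and without CD34, CD48 or Flt3) had 4 libraries per age, and 7 progenitor fractions had 2 per age each. These were the multipotent progenitors MPP1 to MPP4 (Lin- Sca-1+ c-kit+, parted by CD34, CD150, CD48 and Flt3), common lymphoid progenitors (CLPs), granulocyte-macrophage progenitors (GMPs; Lin- Sca-1- c-kit+ CD34+ with Fc gamma receptor) and megakaryocyte-erythrocyte progenitors (MEPs; Lin- Sca-1- c-kit+, without CD34 or Fc gamma receptor). Marrow is described as pooled within an age before sorting, so libraries of a group are separate sorts but not known to be separate animals, and p-values measure the spread between these libraries. In a sorted fraction of mixed cells, a peak in fewer cells and a weaker opening in each cell cannot be told apart.

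Red cells are made from progenitors that answer to the hormone erythropoietin through its receptor, Epor, and switch on a set of genes under GATA1, TAL1 and KLF1 (the product of Klf1). Their product is hemoglobin, which needs alpha globin (Hba-a1), beta globin (Hbb-bs), heme, whose erythroid synthesis starts with the enzyme encoded by Alas2, and iron, which enters through the transferrin receptor, Tfrc. Slc4a1 encodes band 3, the anion exchanger of the red cell membrane, and is a late gene. The beta globin genes are driven by a locus control region upstream of the embryonic gene Hbb-y, and the alpha globin genes by enhancers that lie upstream, several of them in introns of the neighbouring gene Nprl3.

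The DNA at the peaks is shown first for the 7 regions on which the description turns: the regions found in MEPs and in few or no other libraries, the upstream Hbb-bs region found in nearly every other fraction, and the pair of regions found in HSCs and early MPPs. Each line gives 151 bases of the + strand of mm10 around the median summit of the region's peaks. Capitals mark matches to the GATA motif, searched on both strands as AGATAA or TGATAA and as the same words with G for their last letter.
Alas2 +2.4 kb (chrX:150549747-150549897): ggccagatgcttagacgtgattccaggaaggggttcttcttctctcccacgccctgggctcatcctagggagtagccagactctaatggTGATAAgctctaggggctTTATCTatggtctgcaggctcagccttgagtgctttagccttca
Hba-a1 -37.7 kb (chr11:32245763-32245913): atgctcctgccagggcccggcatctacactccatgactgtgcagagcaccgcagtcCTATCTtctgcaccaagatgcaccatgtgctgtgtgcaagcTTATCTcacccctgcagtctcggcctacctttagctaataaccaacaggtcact
Hbb-bs -42.9 kb (chr7:103870725-103870875): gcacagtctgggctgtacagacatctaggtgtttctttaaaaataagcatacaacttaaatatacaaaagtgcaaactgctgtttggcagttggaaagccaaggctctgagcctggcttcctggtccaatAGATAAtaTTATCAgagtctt
Hbb-bs -31.4 kb (chr7:103859247-103859397): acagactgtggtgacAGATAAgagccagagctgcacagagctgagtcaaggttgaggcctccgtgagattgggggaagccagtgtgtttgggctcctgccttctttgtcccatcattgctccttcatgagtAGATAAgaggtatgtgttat
Hbb-bs -33.2 kb (chr7:103861023-103861173): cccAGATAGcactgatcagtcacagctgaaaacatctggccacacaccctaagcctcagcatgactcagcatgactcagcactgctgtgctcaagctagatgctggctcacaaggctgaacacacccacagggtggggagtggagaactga
Alas2 -35.9 kb (chrX:150511428-150511578): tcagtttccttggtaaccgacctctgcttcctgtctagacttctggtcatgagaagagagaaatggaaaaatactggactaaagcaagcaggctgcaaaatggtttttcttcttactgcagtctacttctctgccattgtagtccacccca
Hbb-bs +18.7 kb (chr7:103809046-103809196): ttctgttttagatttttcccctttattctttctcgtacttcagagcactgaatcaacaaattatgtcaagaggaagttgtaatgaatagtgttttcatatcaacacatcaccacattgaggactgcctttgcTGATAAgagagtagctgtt
In the 151 bases shown, Alas2 +2.4 kb, Hba-a1 -37.7 kb, Hbb-bs -42.9 kb and Hbb-bs -31.4 kb held 2 GATA matches each, Hbb-bs -33.2 kb and Hbb-bs +18.7 kb held 1 each, and Alas2 -35.9 kb held 0. Within 100 bases of the summit, Hba-a1 -37.7 kb held 3. A match is a stretch of letters and not a measured binding site.

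The value given per library is the fold enrichment deposited with each peak, the ratio of its signal to that of the surroundings. P- and q-values were deposited beside it, and no read counts. The libraries had been brought to the same number of reads by the authors, yet MEP libraries held 9581 to 11041 peaks, GMP libraries 52576 to 63288 and the others 27087 to 40157. At the 5335 catalogue regions called in all 36 libraries, the median fold enrichment of a library was 7.51 to 7.77 in MEPs, 18.5 to 20.3 in GMPs and 11.6 to 15.5 elsewhere. A missing peak in MEPs, and an extra one in GMPs, is therefore read beside these numbers, and their part in the differences was not tested apart from the alternative with equal numbers of peaks. Reads at the summits of the member peaks, recovered from fold enrichment and p-value for 506 of 506 summits, numbered 6 to 113 with a median of 21, against a background of 0.63 to 4.57. Promoters, taken as 1000 bp before to 100 bp after a TSS, of 5 of 6 GMP marker genes (Mpo, Elane, Prtn3, Ctsg, Cebpe, Csf3r) held a region, called in 100% of GMP and 0% of MEP cases, where all promoters with a region were called in 86.9% and 50.6%. Of the 6 MEP markers, Gata1, Klf1 and Epor held none, Zfpm1 and Tal1 were called in all 36 libraries, and the Gata2 promoter region called most often, 1 of 2, was called in 4 HSC and 2 MPP2 libraries and no MEP library. The promoter regions looked at for these defining markers did not set the MEP libraries apart. The megakaryocyte list was called in 5.0% of MEP cases against 72.5% in HSCs (all promoters: 50.6% and 78.8%), and the CLP and HSC marker lists were as low in MEPs, at 5.0% and 4.17%. The CLP list was called in 75% of CLP and 80% of GMP cases, so it did not set CLPs apart from GMPs.

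The 46 regions ranged from 1 called in every library, the Tfrc promoter, to 9 called in a single library. The share of regions with a single library was 18.4% in the whole catalogue, and 5.08% of the catalogue was called in all libraries. MEP libraries had a peak in 7 to 9 of the 46 regions, a mean share of 16.8%, against 9.35% of the catalogue. GMP libraries had 19 to 24, a mean share of 48.9% against 54.8% of the catalogue. HSC libraries had 12 to 17, with 30.2% against 29.5%. The number of regions found solely in MEPs, in 2 or more libraries, was 3 (6.52%), where the catalogue held 873 (0.831%), and 5 regions (10.9%) were found solely in GMPs, where the catalogue held 16.5%.

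**Figure D1:**
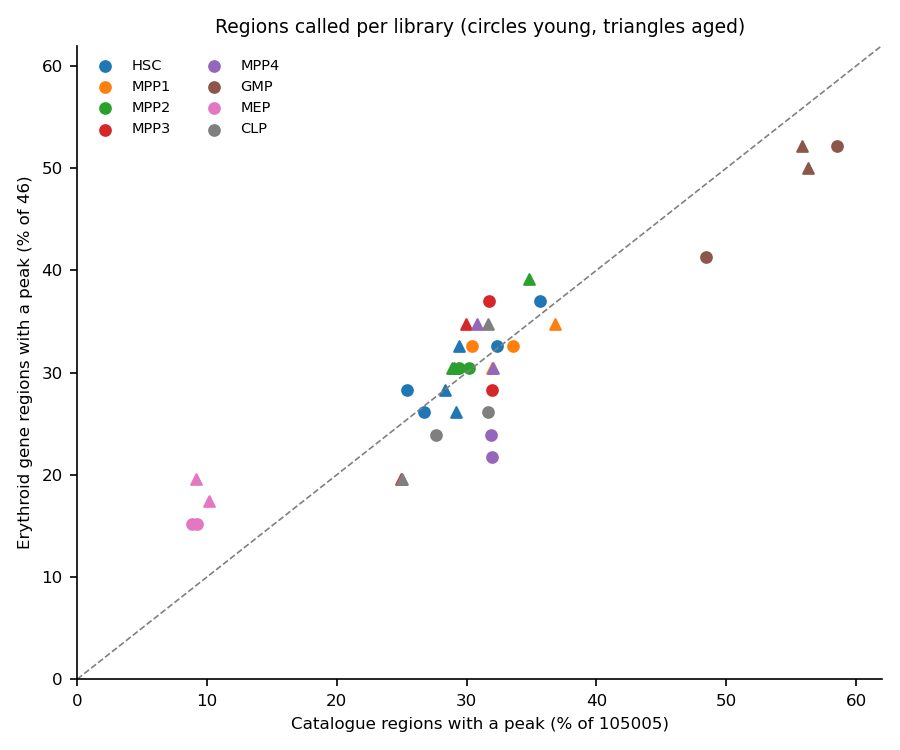
Share of the 46 erythroid gene regions with a peak (vertical axis, percent) against the share of all 105005 catalogue regions with a peak (horizontal axis, percent), 1 point per library, circles young and triangles aged, with the dashed line at equal shares. The 4 MEP points lie above the line, at a mean of 16.8% against 9.35%, and the 4 GMP points below it, at 48.9% against 54.8%.

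**Figure D2:**
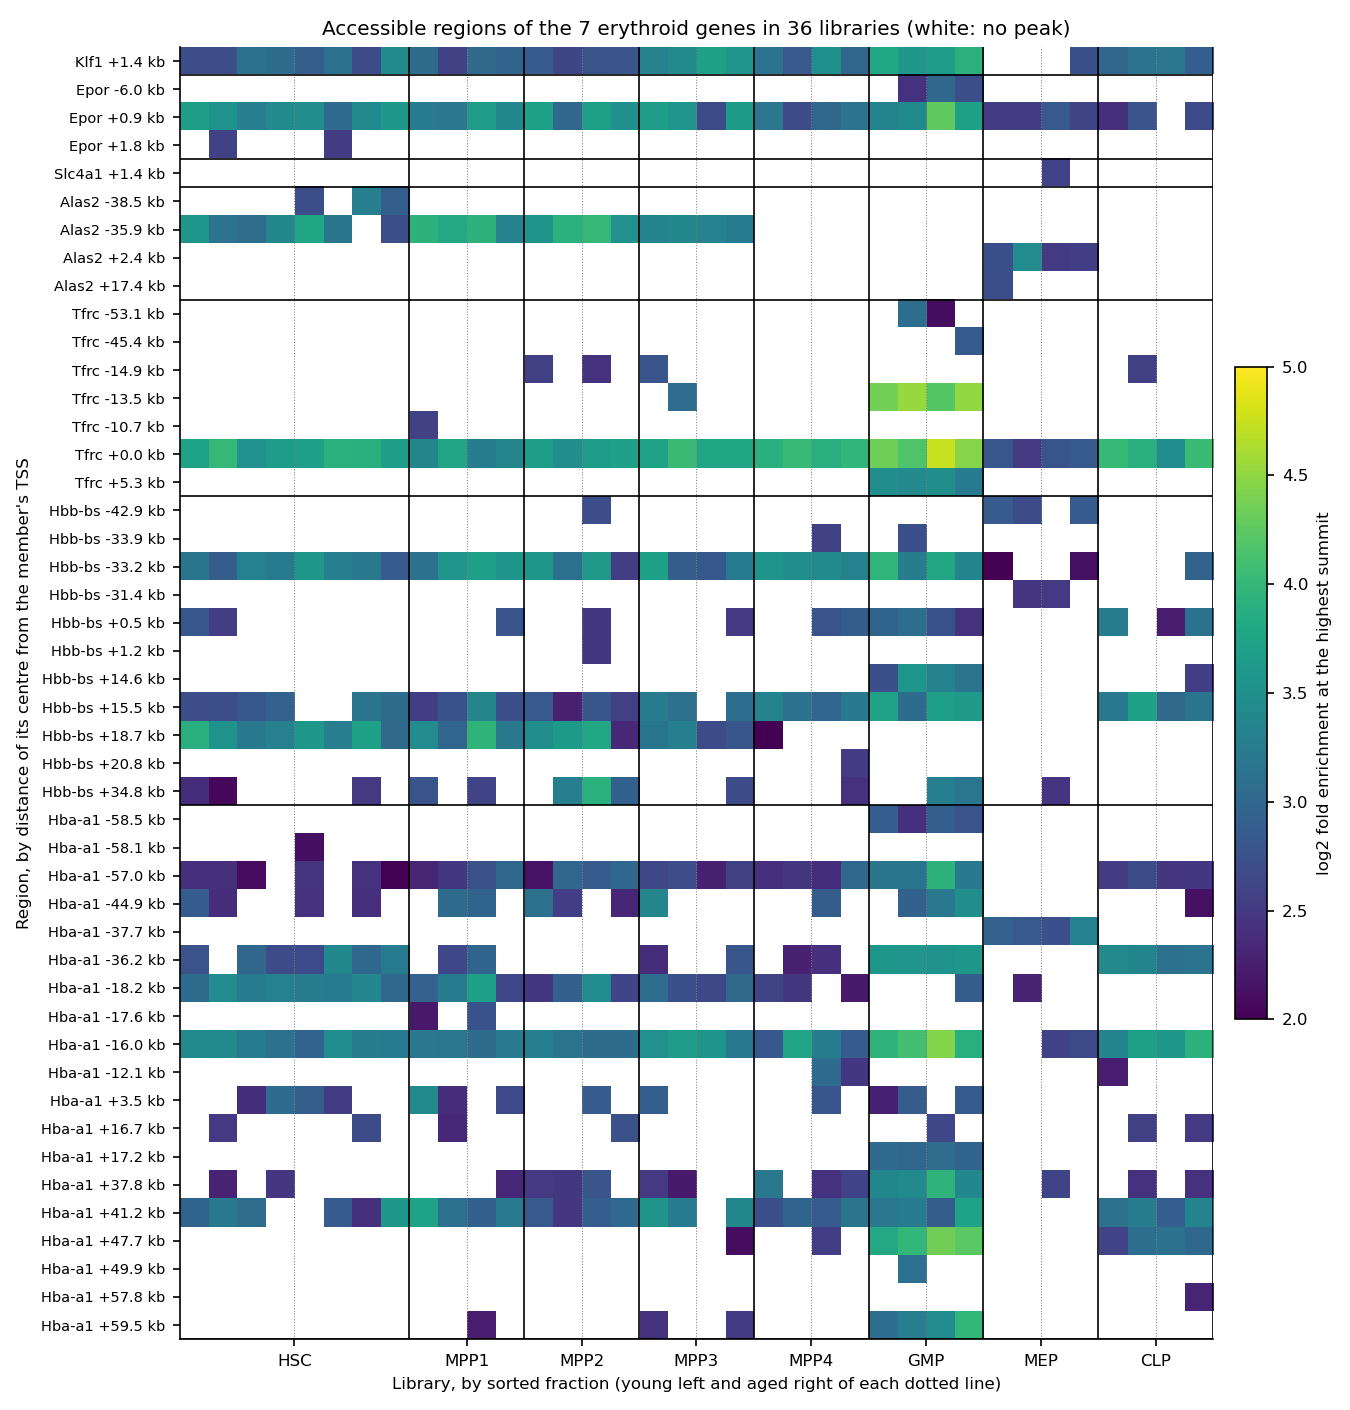
Log2 fold enrichment at the highest summit (colour) of each of the 46 regions (rows, by gene and distance from its TSS) in each of the 36 libraries (columns, by fraction, young left and aged right of each dotted line), with white for no peak. The Tfrc promoter row is filled throughout, Alas2 +2.4 kb and Hba-a1 -37.7 kb are filled in the 4 MEP libraries alone, Alas2 -35.9 kb ends between MPP3 and MPP4, and Hbb-bs +18.7 kb goes on into 1 MPP4 library.

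Klf1, the erythroid transcription factor, had 1 region, at +1.4 kb in coding sequence (chr8:84902906-84903734). It was called in all 32 libraries outside MEPs and in 1 of 4 MEP libraries. Fold enrichment was 13.8 and 12.0 in young GMPs, 12.6 and 15.3 in aged GMPs, 10.1 and 10.7 in young MPP3 and 13 and 11.9 in aged MPP3. In HSCs it ranged from 6.42 to 10.8 with a median of 7.92, and MPP2 values were 7.28 and 6.16 (young) and 6.89 and 6.94 (aged). GMPs thus had the highest mean, 13.4 ± 1.42 (SD, n = 4), followed by MPP3 with 11.4 ± 1.31 (n = 4), MPP4 with 8.83 ± 1.81 and CLPs with 8.30 ± 0.751. MPP2 had the lowest mean of the fractions called throughout, 6.82 ± 0.470, and the single MEP value, in an aged library, was 6.64. Each of the 7 neighbouring pairs of fractions in this order overlapped in range. Against the library median on the log2 scale the single MEP value came first (-0.23), then MPP3 (-0.28) and GMPs (-0.52), with MPP2 last (-0.92), and all 7 pairs overlapped again. No peak was called at the Klf1 promoter in any library.

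Epor, the erythropoietin receptor, had its main region at +0.9 kb, in an intron (chr9:21962352-21962918), called in 35 of 36 libraries. The library without it was an aged CLP library. MEP values were 5.8 and 5.77 in young and 7.13 and 6.15 in aged libraries, and CLP values were 5.32 and 6.95 in young libraries and 6.37 in the other aged one. HSC values ran from 8.27 to 12.8 with a median of 10.9, and MPP2 values were 13.2 and 7.97 (young) and 13.1 and 11.4 (aged). By mean, GMPs were first with 13.3 ± 4.12 (n = 4), then MPP2 with 11.4 ± 2.43, HSCs with 10.9 ± 1.41 (n = 8), MPP3 with 10.8 ± 2.99, MPP1 with 10.4 ± 1.53, MPP4 with 8.11 ± 1.19, and CLPs and MEPs, both at 6.21 with SDs of 0.826 (n = 3) and 0.636 (n = 4). All 7 neighbouring pairs overlapped. On the log2 scale against each library's median at the shared regions, MPP2 (-0.20), HSCs (-0.23) and MEPs (-0.30) came first and CLPs (-1.14) last, and the neighbours overlapped again. MEPs, low on the deposited scale, stood near HSCs on this one. The other Epor regions were weak: -6.0 kb was called in 3 GMP libraries at 5.44 to 7.95, and +1.8 kb in 1 young and 1 aged HSC library at 6.03 and 5.77.

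**Figure D3:**
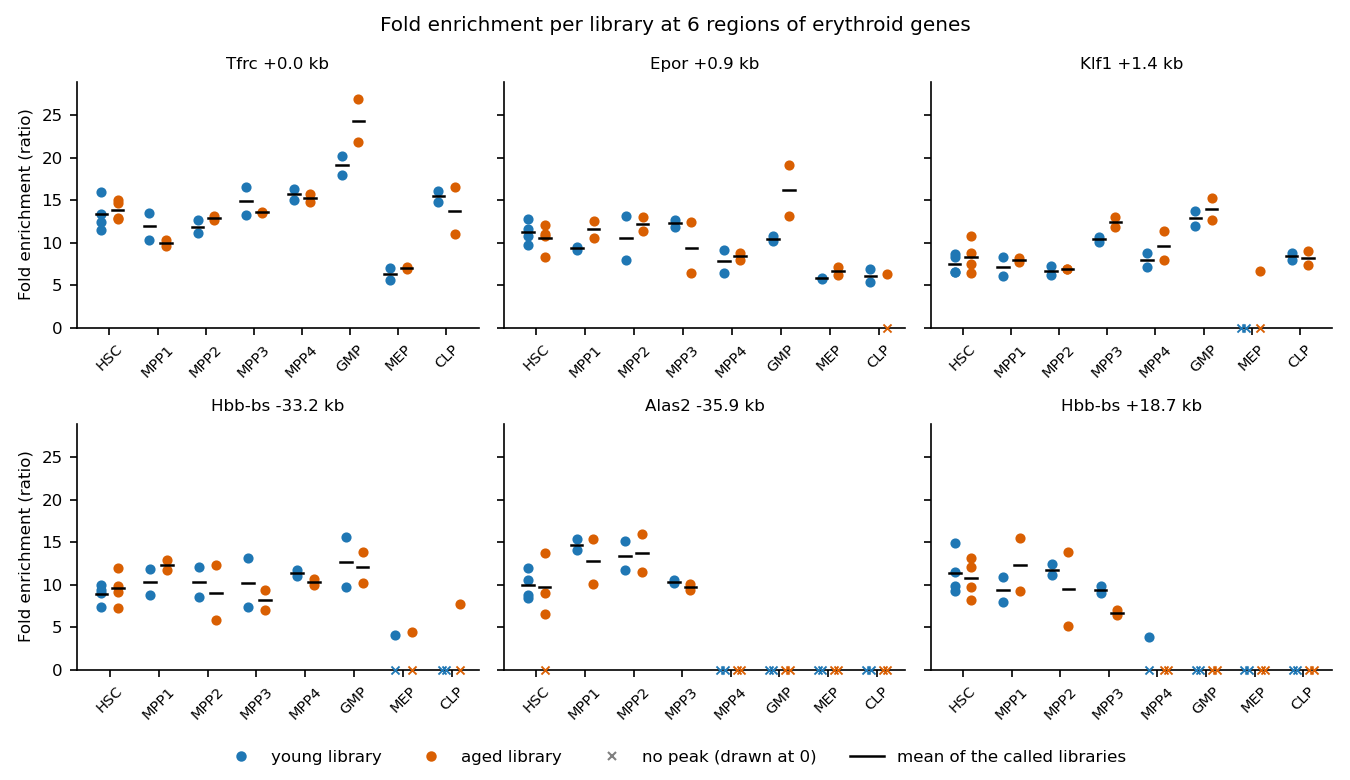
Fold enrichment (ratio, vertical axis) per library at 6 regions, by fraction, with young libraries in blue, aged in orange, crosses at 0 for libraries without a peak and bars for the mean of the called libraries of a group. The Tfrc and Klf1 panels are highest in GMPs, and the Alas2 -35.9 kb and Hbb-bs +18.7 kb panels hold crosses for GMPs, MEPs and CLPs.

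Tfrc, which brings transferrin-bound iron into the cell, had the sole region of the 46 called in every library, at its promoter (chr16:32608647-32609416). GMP values were 20.2 and 18 in young and 26.9 and 21.9 in aged libraries, and MEP values were 7.01 and 5.63 in young and 6.86 and 7.20 in aged ones. HSC values lay between 11.5 and 16. The groups therefore did not overlap between GMPs and any other fraction, or between MEPs and any other fraction, on the deposited scale. In order, the means were 21.8 ± 3.79 in GMPs, 15.5 ± 0.702 in MPP4, 14.6 ± 2.51 in CLPs, 14.2 ± 1.56 in MPP3, 13.6 ± 1.52 in HSCs (n = 8), 12.4 ± 0.89 in MPP2, 10.9 ± 1.76 in MPP1 and 6.67 ± 0.709 in MEPs (n = 4 where not given), and 5 of the 7 neighbouring pairs overlapped. Centred on the library medians, all 7 pairs overlapped, from 0.19 in MPP4 to -0.25 in MPP1.

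The Tfrc promoter could be tested between fractions, since a value existed in all libraries. With limma on centred log2 fold enrichment, MEPs stood at -0.24 (SE 0.0906, 95% interval -0.43 to -0.06, adjusted p = 0.0278) against the mean of the other fractions, where 42.7% of the 5335 regions tested passed. This call was lost without young MEP replicate 2 (-0.17, limma adjusted p = 0.185) or aged MEP replicate 1 (-0.25, limma adjusted p = 0.0519). GMPs stood at 0.18 (interval -0.01 to 0.36, limma adjusted p = 0.102; 49.8% of regions passed), CLPs at 0.12 (limma adjusted p = 0.459; 8.53% passed) and MPP2 at -0.08 (limma adjusted p = 0.779; 0.637% passed). Without centring, the GMP difference was 0.83 (limma adjusted p = 2.25e-09) and the MEP difference -1.11, beside a median over all regions of 0.63 and -0.82. In that uncentred fit 4839 and 5143 of the 5335 regions passed for GMPs and MEPs.

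The other Tfrc regions were mostly those of GMPs. The intergenic region at -13.5 kb (chr16:32595219-32595583) had values of 20.7 and 23.2 in young and 18.5 and 22.9 in aged GMPs, with 53 to 75 reads at the summit, and 8.40 in 1 young MPP3 library. These were as high as the GMP values at the promoter. The intronic region at +5.3 kb (chr16:32614118-32614360) was called in the 4 GMP libraries alone, at 11.2 and 10.7 (young) and 11.3 and 9.48 (aged). The region at -53.1 kb was called in 2 GMP libraries and that at -45.4 kb in 1, while -14.9 kb was called in 2 MPP2 libraries, 1 MPP3 and 1 CLP library at 5.41 to 6.90 and -10.7 kb in 1 MPP1 library. No Tfrc region was found in MEPs other than the promoter.

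Alas2 had 4 regions, and they fell into different fractions. The region at +2.4 kb, in an intron shared with a transcript of Apex2 (chrX:150549607-150550076), was called in the 4 MEP libraries and in none of the other 32. Its fold enrichment was 6.65 and 10.9 in young MEPs, with 14 and 26 reads, and 5.69 and 5.89 in aged MEPs, with 13 and 14 reads. The young values lay above the aged ones, although the lower young library and the aged libraries had nearly the same number of reads, and the difference between the ages within MEPs was not tested. Alas2 +17.4 kb was called in 1 young MEP library. Slc4a1 likewise had a single region, in an intron at +1.4 kb (chr11:102363758-102363944), in 1 aged MEP library at 6.06.

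The intergenic region at Alas2 -35.9 kb (chrX:150511230-150511809) was called in 7 of 8 HSC libraries and in all MPP1, MPP2 and MPP3 libraries, and in no MPP4, GMP, MEP or CLP library. It was picked for description after its values were seen. HSC values were 11.9, 8.82, 8.39 and 10.6 (young) and 13.7, 8.97 and 6.58 (aged). Means were 13.7 ± 2.51 in MPP1, 13.6 ± 2.27 in MPP2, 10.0 ± 0.494 in MPP3 (n = 4 each) and 9.86 ± 2.40 in HSCs (n = 7), and the lowest MPP1 value, 10.1, lay within the HSC range. Next to it, Alas2 -38.5 kb was called in 3 of 4 aged HSC libraries, at 6.60, 9.81 and 7.53, and in no other library (3 of 18 aged against 0 of 18 young, unadjusted p = 0.143 in the exact conditional test).

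At the beta globin locus, the region called most often lay at Hbb-bs -33.2 kb (chr7:103860916-103861384), 7.9 kb upstream of Hbb-y. It was called in every HSC, MPP1 to MPP4 and GMP library, in 2 of 4 MEP libraries and in 1 of 4 CLP libraries. Values were 15.6 and 9.67 (young) and 13.9 and 10.2 (aged) in GMPs, 7.26 to 12.0 in HSCs, 4.02 and 4.4 in the MEP libraries and 7.75 in the CLP library. The mean was highest in GMPs, 12.3 ± 2.85, and in MPP1, 11.3 ± 1.80, and 6 of the 7 neighbouring pairs overlapped. Against the library median on the log2 scale, MPP1 came first (-0.20) and GMPs sixth of the 8 fractions (-0.67), and all 7 pairs overlapped. Its sequence above held, beside 1 GATA match, 2 matches to the NF-E2 motif (TGANTCA), 2 to the KLF motif (CCNCNCCC) and 2 to the E-box (CAGNTG).

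Either side of it lay a region called mostly in MEPs. Hbb-bs -42.9 kb (chr7:103870639-103870929) was called at 7.27 and 6.5 in the young MEP libraries, at 7.24 in 1 aged MEP library and at 6.52 in 1 aged MPP2 library, with 23 to 27 reads in MEPs and 12 in MPP2. Hbb-bs -31.4 kb (chr7:103859183-103859414) was called in 1 young and 1 aged MEP library, at 5.57 and 5.65, and in no other, which did not pass the test between fractions (Fisher adjusted p = 0.0587). The peak at -33.2 kb was likewise called in 2 of the 4 MEP libraries.

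Downstream, Hbb-bs +18.7 kb (chr7:103808940-103809434) showed a pattern like that of Alas2 -35.9 kb: it was called in all 8 HSC libraries and all MPP1, MPP2 and MPP3 libraries, in 1 young MPP4 library at 3.85, and in no GMP, MEP or CLP library. HSC values were 14.9, 11.5, 9.29 and 9.86 (young) and 12.0, 9.70, 13.1 and 8.21 (aged). Means were 11.1 ± 2.22 in HSCs, 10.9 ± 3.29 in MPP1, 10.6 ± 3.85 in MPP2 and 8.08 ± 1.61 in MPP3, with overlapping ranges. Hbb-bs +15.5 kb, in contrast, was called in 29 libraries of 7 fractions and in no MEP library, with values up to 13.3 in GMPs and 13.1 in CLPs.

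Near the Hbb-bs TSS itself, the region at +0.5 kb, in an intron (chr7:103827176-103827658), was called in 4 GMP libraries at 5.41 to 8.47, in 3 CLP libraries at 4.73 to 9.57 and in 7 HSC and MPP libraries, and in no MEP library. All of its 60-base stretches, the read length, occur a further time within 100 kb, as do those of +14.6 kb in Hbb-bt, the near-identical neighbour of Hbb-bs. The reads of these 2 regions cannot be assigned to one of the genes, and their values are uncertain.

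At the alpha globin locus, Hba-a1 -37.7 kb (chr11:32245615-32245988), in an intron of Nprl3, was called in the 4 MEP libraries and in none of the other 32. Values were 7.70 and 7.16 in young MEPs, with 21 and 19 reads, and 6.63 and 9.98 in aged MEPs, with 21 and 33 reads, so that the ages overlapped. None of its 60-base stretches recurs within 100 kb. The intron region at -36.2 kb, close by, was called in 21 libraries and in no MEP or MPP2 library, at 11.5 to 12.0 in GMPs and 8.66 to 10.6 in CLPs.

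The Nprl3 promoter, at Hba-a1 -16.0 kb (chr11:32267231-32267873), was called in all libraries outside MEPs and in the 2 aged MEP libraries, at 6.02 and 6.37. GMPs had the highest mean, 17.3 ± 3.11, then CLPs with 12.6 ± 2.10, MPP3 with 11.3 ± 1.4, HSCs with 9.69 ± 1.12 (n = 8), MPP4 with 9.34 ± 2.95, MPP1 with 9.02 ± 0.485 and MPP2 with 8.85 ± 0.722. Against the library median on the log2 scale, CLPs came first (-0.09), then GMPs (-0.16), MPP3 (-0.30) and the 2 MEP values (-0.32), with MPP4 last (-0.59), and all 7 pairs overlapped. The intron region at -18.2 kb (chr11:32265039-32265544) had peaks in all HSC, MPP1, MPP2 and MPP3 libraries, 3 of MPP4, 1 of GMPs, 1 of MEPs and none of CLPs. Its HSC values were 8.04 to 10.9. The 2 regions were not compared with a test, and at -18.2 kb neither the GMP nor the CLP difference passed (Fisher adjusted p = 0.182 and 0.111).

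No peak was called at the Hba-a1 promoter. Of the 60-base stretches within 500 bp of its TSS, 83.5% also occur at Hba-a2, and whether reads there were placed was not tested. At Hbb-bs +0.5 kb and +14.6 kb, where all such stretches recur, peaks were called in 14 and 5 libraries. The region nearest to the Hba-a1 TSS was the promoter of Hbq1b at +3.5 kb, called in 13 libraries at 4.79 to 10.8 and in no MEP or CLP library. The farther regions +41.2 kb and -57.0 kb, the latter at the promoter of Mpg, were called in 29 and 30 libraries and in no MEP library. Hba-a1 +47.7 kb was called in the GMPs at 14 and 15.9 (young) and 20.4 and 18.8 (aged) and in the CLPs at 6.14 and 8.46 (young) and 8.69 and 8.09 (aged), so the groups did not overlap, and in 2 MPP libraries. Hba-a1 -58.5 kb and +17.2 kb were called in the 4 GMP libraries alone, and +59.5 kb in these and 3 MPP libraries. The regions at -44.9, +16.7 and +37.8 kb were scattered over 15, 7 and 18 libraries, and -58.1, -17.6, -12.1, +49.9 and +57.8 kb were called in 1 to 3 libraries each.

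**Figure D4:**
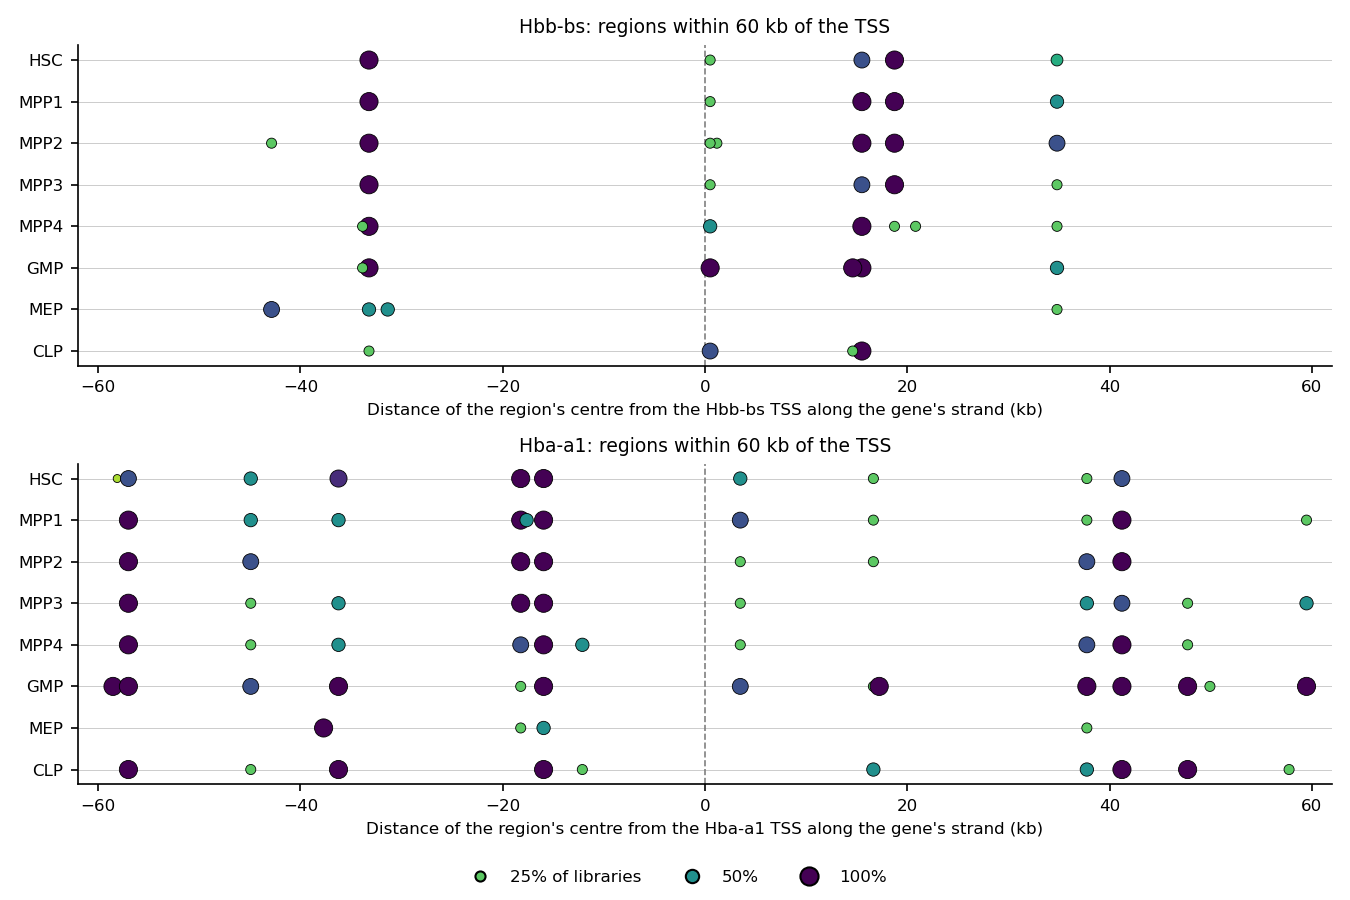
Share of the libraries of each fraction (rows) with a peak, as dot size and colour, at each region within 60 kb of the Hbb-bs TSS (upper panel) and of the Hba-a1 TSS (lower panel), against distance along the gene's strand in kb, with no dot where no library had a peak. The MEP rows hold dots at 42.9, 33.2 and 31.4 kb upstream of Hbb-bs and at 37.7, 18.2 and 16 kb upstream of Hba-a1, 1 more far downstream of each gene, and none at either TSS.

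The calls were compared between fractions, to ask which of these regions open in the erythroid and which in the other branches, with Fisher's exact test, 2-sided, in which 4 libraries of a fraction stood against the other 32. P-values were adjusted after Benjamini and Hochberg over all 85671 catalogue regions called in 2 or more libraries, of which 37 were members. MEPs had 3 regions called more often: Alas2 +2.4 kb and Hba-a1 -37.7 kb (4 of 4 against 0 of 32, Fisher adjusted p = 0.000421 for each) and Hbb-bs -42.9 kb (3 of 4 against 1 of 32, Fisher adjusted p = 0.019). In the catalogue 0.859% of the regions tested were so called. The call of Hbb-bs -42.9 kb was lost when young MEP replicate 1 or 2 or aged MEP replicate 2 was left out, with Fisher adjusted p between 0.108 and 0.11. It was also lost with replicate number as a block, as given below. With the same 9581 strongest peaks in every library, all 3 were still called, beside 7.35% of regions. Among peaks of -log10 q of at least 10, Alas2 +2.4 kb was present in fewer than 2 libraries and so was not tested, while the other 2 were called.

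MEPs had 4 regions called less often, where 13% of the catalogue was: Klf1 +1.4 kb (1 of 4 against 32 of 32, Fisher adjusted p = 0.00667), Hba-a1 -57.0 kb (0 of 4 against 30 of 32, Fisher adjusted p = 0.00382), and Hbb-bs +15.5 kb and Hba-a1 +41.2 kb (0 of 4 against 29 of 32, Fisher adjusted p = 0.00667 for each). This share of the members, 4 of 37, was near the background. With equal numbers of peaks none of the members tested was called less often in MEPs, and at Klf1 +1.4 kb the difference turned to 21.9 percentage points in favour of MEPs (Fisher adjusted p = 0.637). The Klf1 call was also lost among peaks of -log10 q of at least 10 (adjusted p = 0.343) and with a cover of 50% (adjusted p = 0.0678).

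GMPs had 10 regions called more often, beside 34.9% of the catalogue. They were Tfrc +5.3 kb, Hba-a1 -58.5 kb and Hba-a1 +17.2 kb (4 of 4 against 0 of 32, Fisher adjusted p = 0.000157 for each), Tfrc -13.5 kb and Hbb-bs +14.6 kb (Fisher adjusted p = 0.000633 for each), Epor -6.0 kb, Tfrc -53.1 kb, Hba-a1 +47.7 kb, Hba-a1 +59.5 kb and Hbb-bs +0.5 kb (Fisher adjusted p = 0.00282 to 0.0475). The call of Hbb-bs +0.5 kb was lost in 26 of the 36 tests that left out a library and also among peaks of -log10 q of at least 10 and with a cover of 50%. It was likewise lost with replicate number as a block. All 60-base stretches of Hbb-bs +0.5 kb and +14.6 kb recur nearby, so their reads cannot be assigned and their 2 calls may not be separate. Tfrc -53.1 kb had peaks in 2 GMP libraries alone, of which aged GMP replicate 1 stood at 4.28 with 6 reads. No test of Tfrc -53.1 kb was made when either of these libraries was left out. With equal numbers of peaks 1 of the 10 regions remained, Tfrc -13.5 kb. None was called less often in GMPs (1.27% of the catalogue). Less often at an unadjusted Fisher p under 0.05 were 2 members, beside 1929 of 85671 regions. Without the MEP libraries, an alternative added after the data were seen, 1 member was called less often, Hbb-bs +18.7 kb. Neither this count nor that with equal numbers of peaks is set against the catalogue share of its own setting.

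CLPs had no member called more (2.37% of the catalogue) or less often (0.386%) by Fisher's test. At an unadjusted Fisher p under 0.05 were 1 and 4 of the 37 members, beside 6567 and 3657 of the 85671 regions. The 1 was Hba-a1 +47.7 kb (adjusted p = 0.0839), called when peaks had to cover 50% of a region. The 4 were Hbb-bs -33.2 kb and Hba-a1 -18.2 kb (adjusted p = 0.111 for each), Hbb-bs +18.7 kb (0.243) and Alas2 -35.9 kb (0.341), and the first 2 were called without the MEP libraries. MPP2, which the study describes as biased to megakaryocytes and erythrocytes, had no member called more or less often, with 0 and 1 at an unadjusted p under 0.05, and no region of the catalogue passed either (0%; 1858 more and 136 less at an unadjusted p under 0.05). The 1 was Hba-a1 -36.2 kb (0 of 4 against 21 of 32, unadjusted Fisher p = 0.0232).

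With MEPs left out, a fit of 32 libraries, added after the data were seen, gave fold enrichment tests at Klf1 +1.4 kb and Hba-a1 -16.0 kb as well. In limma, CLPs stood at 0.38 (SE 0.11, adjusted p = 0.0146; 20.2% of 11159 regions passed) at Hba-a1 -16.0 kb, a call lost without aged CLP replicate 1 (adjusted p = 0.0651) or 2 (adjusted p = 0.0889) and without centring. GMPs stood at 0.23 there (limma adjusted p = 0.0849; 51% passed), and MPP2 at -0.33 (SE 0.13) at Klf1 +1.4 kb (limma adjusted p = 0.192; 2.37% passed). The MPP2 difference at Klf1 +1.4 kb passed without centring (-0.45, limma adjusted p = 0.0164). In that uncentred fit 483 of 11159 regions passed for MPP2, and the median difference over all regions was -0.11. The age difference at Klf1 +1.4 kb was 0.16 in this fit (limma adjusted p = 0.65; 0.0179% passed).

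Age was compared within fractions. Over all fractions, with the exact conditional test and fraction as stratum, no member was called more or less often in aged than in young libraries, and no region of the catalogue was (0%), with 0 members and 611 and 558 of 85671 regions at an unadjusted p under 0.05. A fraction whose libraries were all called, or all uncalled, adds nothing to this test. It could therefore show no age difference at Alas2 +2.4 kb and Hba-a1 -37.7 kb, called in the 4 MEP libraries alone. A region called in a single progenitor fraction could not reach an unadjusted p under 0.05, so the test says nothing of age there. The widest gaps among members were at Hbb-bs +34.8 kb, called in 9 of 18 aged and 4 of 18 young libraries (unadjusted p = 0.172, exact conditional test), and at Hbb-bs +0.5 kb, called in 9 and 5 (unadjusted p = 0.254, exact conditional test). In HSCs, with 4 libraries per age, 7 members were called in all 8 libraries. Their aged minus young differences in log2 fold enrichment ran from -0.08 at Epor +0.9 kb (interval -0.40 to 0.24) to 0.16 at Klf1 +1.4 kb (SE 0.20, interval -0.27 to 0.58), with limma adjusted p of 0.879 to 0.99. None of 17340 regions passed (0%), and 1571 were at an unadjusted p under 0.05. At the Tfrc promoter the difference over all 36 libraries was 0.03 (interval -0.09 to 0.14, limma adjusted p = 0.964; 0% of regions passed, 376 unadjusted), and whether it differed between fractions gave an adjusted p of 1 in limma's interaction test. These intervals, and not the missed thresholds, are what the data say of the size of an age difference: at Klf1 in HSCs it may still be 0.58 on the log2 scale.

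Other genes of the erythroid programme were taken from 6 lists, 57 genes in all, and judged by the region at their promoter, which 48 had. Where several regions lay at a gene's promoters, the one called in most libraries was taken, here and for the marker genes, so a call speaks of that region alone. The promoters of Tal1, Zfpm1 and Klf3 (transcription factors), Uros, Cpox and Ppox (heme synthesis), Steap3 (iron), Epb41 (membrane skeleton), and Jak2, Stat5a and Bcl2l1 (erythropoietin signalling) were among the 12 of 48 called in all 36 libraries, where 5274 of 14242 promoters of all genes were. Gata1 had no promoter region. Of the 8 other globin genes, Hbq1a and Hbq1b had one, and Hbb-bt, Hbb-bh1, Hbb-bh2, Hbb-y, Hba-a2 and Hba-x had none. Called more often in MEPs was 1 gene, Kel, which encodes a blood group protein of the red cell membrane (3 of 4 against 1 of 32, Fisher adjusted p = 0.019), where 0.0702% of 14242 promoters were. This call was lost without young MEP replicate 1, young MEP replicate 2 or aged MEP replicate 2. It was also lost among peaks of -log10 q of at least 10. Called less often in MEPs were 8 of 48, a share near that of all promoters (18.3%), and with equal numbers of peaks none was. They were Ldb1, a partner of GATA1 and TAL1, Alad, of heme synthesis, Ftl1 and Hfe, of iron storage and uptake, Gypc, a glycophorin, Cish and Socs3, which dampen cytokine signals, and Erfe, the erythroid hormone that lowers hepcidin, with Fisher adjusted p of 0.00154 to 0.0282.

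By list, among genes with a promoter region, MEP calls fell on 1 of 10 transcription factors (less), 1 of 8 heme synthesis genes (less) and 2 of 8 iron genes (less). They also fell on 1 of 12 membrane genes (more) and 1 (less), and on 3 of 8 erythropoietin signalling genes (less). Of all promoters, 18.3% were called less and 0.0702% more often in MEPs. None of the list calls in the less frequent direction was left at equal numbers of peaks. GMPs had Nfe2 (Fisher adjusted p = 0.00525), Lmo2 and Sptb (0.0475 for each) more often, 3 of 48, a share near the 6.16% of all promoters, and Hfe less often (Fisher adjusted p = 0.0139), beside 0.66%. The 3 promoters called more often in GMPs fell to 1 in 19 of the 36 tests that left out a library and with equal numbers of peaks, and were 7 at -log10 q of at least 10, where none was called less often. CLPs had Tfr2, the second transferrin receptor, less often (0 of 4 against 28 of 32, Fisher adjusted p = 0.0431; 0.183% of promoters), and that call was lost without any one of the 4 CLP libraries and under 4 other settings (-log10 q of at least 10, a cover of 50%, equal numbers of peaks, and regions of 1 library tested too). MPP2 had no call in either direction by Fisher's test, as for all promoters. Across the 48 promoters, a peak was present in 49.0% of MEP cases, near the 50.6% of all promoters.

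The letters of 6 motifs, none of which contains another, were searched on both strands within 100 bases of the median summit. A GATA match was present in 21 of the 46 regions (45.7%) and in 26.2% of the 104825 catalogue regions whose sequence was read. Among catalogue regions called in at least 3 MEP libraries and at most 1 other, 522 of 594 (87.9%) held one, and so did the 3 members of that class, Alas2 +2.4 kb, Hba-a1 -37.7 kb and Hbb-bs -42.9 kb. The other motifs were closer to the catalogue: KLF (CCNCNCCC) in 15 (32.6% against 28.3%), E-box (CAGNTG) in 18 (39.1% against 43.5%), NF-E2 (TGANTCA) in 6 (13% against 11.3%), STAT (TTCNNNGAA) in 4 (8.7% against 5.68%) and ETS (GAGGAAG) in 9 (19.6% against 19.5%). Neighbouring regions share a locus, and the shares are given without a test.

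**Figure D5:**
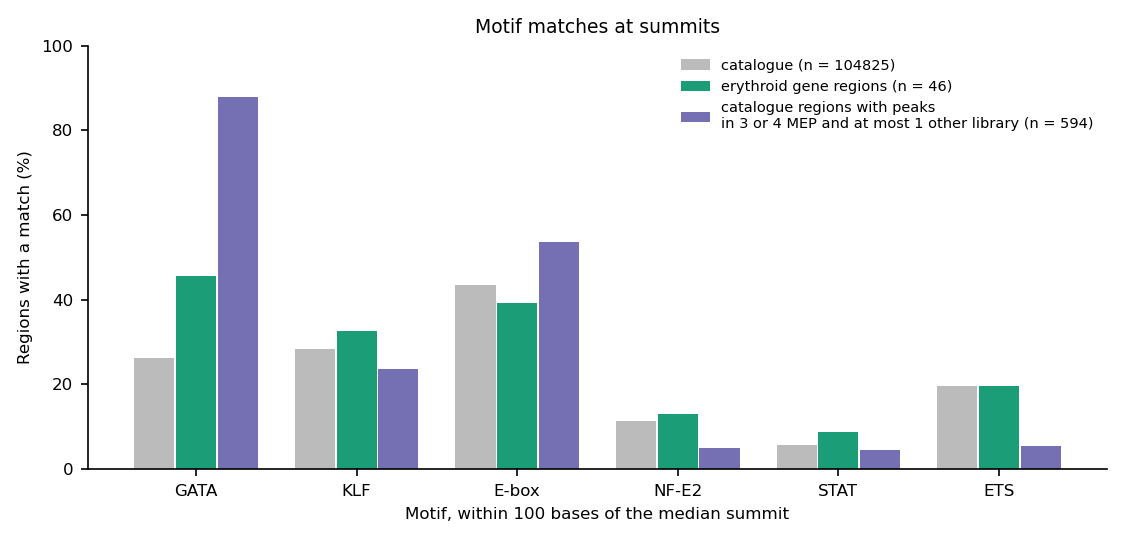
Percent of regions (vertical axis) with a match to each of 6 motifs within 100 bases of the median summit, for the catalogue (grey, n = 104825), the erythroid gene regions (green, n = 46) and catalogue regions called in 3 or 4 MEP libraries and at most 1 other (purple, n = 594). GATA stands at 26.2%, 45.7% and 87.9% in the 3 sets.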

How the data were processed

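The authors ran ATAC-seq on 36 libraries of 20000 sorted cells, with single reads of 60 bp and fragments of 240 to 360 bp. According to the methods and the submitters' processing notes, reads were aligned to mm10 with Bowtie2, mapped reads were subsampled with SAMtools to an equal number per library, and peaks were called per library with MACS2 2.2.6 at a q-value limit of 0.001. Each deposited summit carries a fold enrichment, a ratio to the signal around it, with a -log10 p-value and a -log10 q-value, whose lowest value was 3.00 to 3.02 per library. The integer score deposited beside them was not used.

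Entries of the same interval were counted as 1 peak (1204561 peaks of 1358077 entries), and the highest fold enrichment of a library in a region was taken. TSSs and annotation came from GENCODE release 21 for mouse. Depth was known only as reads recovered at summits, with a tolerance of 0.01 on the log10 p-value. Sequences were read from the RefSeq GRCm38 genome, which is mm10. Calls were tested with Fisher's exact test or an exact conditional test (scipy 1.17.1), and fold enrichment with limma 3.58.1 in R 4.3.3 on log2 values centred on the library median over regions called in all libraries of the fit, with Benjamini-Hochberg adjustment over all regions and a threshold of 0.05. The scripts were tested on simulated data.

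The genes, regions and lists were chosen with earlier results of these data known. Chosen for description were the region at or nearest to each TSS and up to 3 further regions of each gene called most often. Up to 5 regions per fraction with the smallest adjusted p were chosen too. Some of these, among them Hba-a1 -57.0 kb, +41.2 kb, -58.5 kb and +17.2 kb, are given in the text by their calls, without fold enrichment per library. The settings varied were a -log10 q of at least 10, a cover of 50%, the 9581 strongest peaks of every library, testing of regions called in 1 library, other or no centring, a replicate block, other rules for the members, and leaving out each library. The fit and tests without MEPs were added after the data were seen.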

Additional observations from a re-analysis of the deposited data

How the results depend on the processing

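The number of member regions was 46, and 29 with globin windows of 30 kb. Of the call counts of members, the following moved by more than 1.5 times, and the cause was not tested. With the same number of peaks in every library, MEPs had 0 regions called less often and GMPs 1 called more often. With peaks of -log10 q of at least 10, CLPs had 1 called less often, and with a cover of 50% 1 called more often. Without the MEP libraries, GMPs had 1 and CLPs 2 called less often. Of the pathway promoters, MEPs had 0 called more and 5 less often at -log10 q of at least 10, 2 more often at a cover of 50%, and 3 more and 0 less often with equal peaks. GMPs had 7 more and 0 less often at -log10 q of at least 10, 2 less often at a cover of 50%, 1 more and 2 less often with equal peaks, and 1 more often with regions of 1 library tested too. CLPs had 0 less often under each of these 4 settings. These counts of members and promoters are given without the share of all regions under the same setting, and are not read against a background. At Klf1 +1.4 kb, the MEP difference with equal peaks turned to 21.9 percentage points. At the Tfrc promoter, the GMP difference without centring was 0.83. Without centring, the fit of 32 libraries gave 1 member call for MPP2, 3 for GMPs and 0 for CLPs. Of all 11159 regions, 483, 8926 and 2234 passed there, with median differences of -0.11, 0.52 and -0.09. The uncentred CLP difference at Klf1 +1.4 kb was -0.12 and the age difference at the Tfrc promoter -0.0019. At -log10 q of at least 10, this fit gave 1 member call for GMPs. At -log10 q of at least 10 the Tfrc promoter was not called in all 36 libraries and gave no value.

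Whether replicate numbers pair the libraries could not be settled. Deviations of same-numbered young and aged libraries from their group means correlated between -0.0976 and 0.241, with 7 of 18 pairs over 0.1. Those of same-numbered libraries of 2 fractions of one age correlated between -0.0637 and 0.33, with 7 of 112 pairs over 0.1. In a group of 2 libraries the deviations are exact opposites. Pairs between such groups therefore give the same correlation for both replicate numbers, and the pairs are not all separate values. With the replicate block, MEPs had 2 member regions called more often (Hbb-bs -42.9 kb lost, exact conditional adjusted p = 0.0523) and 4 less often, GMPs had 9 more often (Hbb-bs +0.5 kb lost, exact conditional adjusted p = 0.0811), the Tfrc promoter stood at -0.25 in MEPs, and pathway promoters had 1 call more often in GMPs and 0 less often in CLPs.

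With each library left out in turn, MEPs had 2 to 3 member regions called more and 4 to 5 less often, GMPs had 8 to 10 more often, and all other member counts were 0. Pathway promoters had 0 to 1 more and 5 to 10 less often in MEPs, 1 to 3 more and 1 less often in GMPs, and 0 to 1 less often in CLPs. The Tfrc promoter differences ran from -0.277 to -0.173 in MEPs, -0.12 to -0.0297 in MPP2, 0.0969 to 0.257 in GMPs (called without young GMP replicate 2, limma adjusted p = 0.0378), 0.041 to 0.227 in CLPs and 0.00798 to 0.0538 with age. Age differences in HSCs ran from -0.11 to 0.0495 at Hba-a1 -18.2 kb, -0.144 to 0.0315 at Hba-a1 -16.0 kb, -0.153 to 0.0493 at Hbb-bs +18.7 kb, -0.0384 to 0.215 at Hbb-bs -33.2 kb and -0.161 to 0.0241 at Epor +0.9 kb. In the fit of 32 libraries, member calls were 0 to 1 for GMPs and for CLPs, the CLP difference at Klf1 +1.4 kb ran from -0.0511 to 0.13, and age differences from -0.0632 to 0.00682 at Hba-a1 -16.0 kb and from -0.00209 to 0.0504 at the Tfrc promoter. Peak lists without read counts show presence at a limit, so a region missing from a library may lie just under it.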

Other observations

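Promoters with the highest correlation of log2 fold enrichment to the region nearest to a member's TSS over the 36 libraries were looked up among 12243 promoters of other genes, as a description without a test, with missing peaks taken as 0. For Alas2 +2.4 kb the nearest were 1300017J02Rik (Pearson's r of 0.997), Trim10 (0.995) and Gm17545 (0.984), each called in the 4 MEP libraries alone. Here 32 of 36 libraries stand at 0 in both regions, so these values show that the calls are shared and nothing of the heights. For Hbb-bs +0.5 kb they were Cysltr1 (0.779), Pea15a (0.708) and Cdh23 (0.705), each called in all 4 GMP and all 4 CLP libraries and in no MEP library. For Hba-a1 +3.5 kb the nearest, Leo1, reached 0.571 and was called in all 36 libraries, so no promoter followed that region closely. The points share library depth and peak number.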
